A study of Mus musculus with 24 samples.

Results

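RNA bound to the ribosomes of oligodendrocytes (OLs, the myelin-forming cells of the central nervous system) was compared with total RNA of the same uninjured, or naive, mouse spinal cord. The comparison uses 6 of the 24 libraries of the series: the 3 whose labels name a naive IP sample (called OL here) and the 3 whose labels name a naive IN sample (called total). All mice carried the genotype plp-cre;rpl22HA, in which a tamoxifen-inducible Cre under a promoter used by OLs switches on an HA-tagged copy of the ribosomal protein RPL22. The naive mice had no injury. The 18 other libraries came from mice with a T9 contusion (IH impactor, 50 kdyn), taken 2, 10 or 42 days after injury (dpi 2, 10 and 42). The labels give female mice aged 10 to 12 weeks at injury, whereas both libraries of 1 dpi 2 pool held 2604 and 2414 Y-linked counts (13 at most elsewhere). For 2 dpi 42 libraries the label fields conflict on OL or total RNA, and the field that matches the column name was followed. Naive cord was collected on the same day as dpi 42 cord, so the naive mice were older than that range. The Cre and Rpl22 alleles were both on a C57Bl/6 background.

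Each naive tissue pool came from a pair of mice and gave 1 library of each kind: 10% of the cleared lysate was kept as total RNA and the rest went through the HA immunoprecipitation. The 3 OL and 3 total libraries are therefore 3 matched pools. OL and total RNA were purified with different kits (PicoPure and RNeasy), a difference that cannot be told apart from the difference between OL and total RNA. The model is limited by its driver, since Cre acts in any cell that uses this promoter at the time of tamoxifen, which includes the Schwann cells of nerve roots. A higher OL value means a higher scaled level in the RNA recovered with tagged ribosomes than in the RNA of the cord. Because the libraries were scaled to each other, it is not a share of counts, and small fold changes depend on the scaling. The authors report apparent contamination of OL fractions with RNA of other cells, such as microglia and macrophages, after injury. Cell of origin, ribosome loading and such carry-over cannot be told apart in an OL value. Likewise, fewer cells of a type and less RNA per cell cannot be told apart in total RNA.

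Mature OLs wrap axons with sheets of membrane that compact into myelin, and they make large amounts of a few structural proteins together with galactolipids and cholesterol. They arise from OL precursor cells (OPCs), which pass through a short newly formed stage before they express the myelin genes. A differentiated OL is also coupled to astrocytes through gap junctions and supplies axons with metabolites.

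The naive libraries held 31506966 to 31954139 counts on genes for OL and 27739039 to 28552424 for total RNA, so 3 counts correspond to 0.115 to 0.127 CPM (the count per unit of library size, which edgeR's TMM method scales) in OL and 0.0951 to 0.0984 CPM in total. Between 12707 and 13151 genes reached 10 counts in an OL library, against 14432 to 14547 in a total library. The gene of the tagged protein, Rpl22, was measured at 91.3, 97.9 and 88.5 CPM in OL libraries 1, 2 and 3 and at 91.3, 86.6 and 84.8 CPM in the total libraries. Its OL and total values overlapped (log2 fold change 0.08, q = 0.501). Rpl22 is expressed by all cells, and its level does not report on the tag.

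OL library 3 stood apart from the other naive OL libraries. In it, 340 genes with at least 10 CPM were 4-fold or more above both other OL libraries, whereas neither of the other OL libraries had such a gene. Of the 20 tested genes of an astrocyte list, 15 were among these 340, as were 4 of 15 Schwann cell and 3 of 15 OPC genes, but no gene of the neuron, microglia, endothelial or mature OL lists. The summed level of the astrocyte list was 6174, 5845 and 23986 CPM in OL libraries 1, 2 and 3 and 14143, 13425 and 12742 CPM in total libraries 1, 2 and 3. OL library 3 thus lay above every naive total library and the other OL libraries lay below them. The same sum spread over a similar range among the OL libraries of injured cord, at 6863, 5061 and 15442 CPM at dpi 2, at 6993, 14059 and 8097 CPM at dpi 10, and at 25247, 23061 and 7774 CPM at dpi 42.

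**Figure D1:**
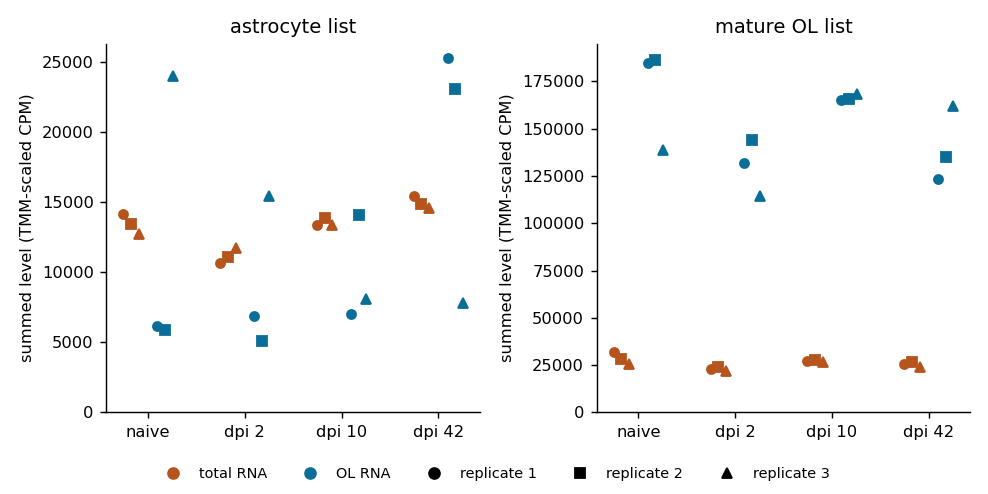
Summed TMM-scaled CPM of the astrocyte list (left) and the mature OL list (right) in all 24 libraries, with total RNA in brown, OL RNA in blue and a symbol for each replicate. Naive OL replicate 3 sits at 23986 CPM for the astrocyte list, above the 3 naive total libraries, and at 138620 CPM for the mature OL list, below the other naive OL libraries but above every total library.

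In the same library the mature OL list summed to 138620 CPM, against 184990 and 186610 CPM in the other OL libraries and 25522 to 31684 CPM in total RNA. Printed list counts that moved by over 1.5 times without it are given below with and without it, apart from some counts of 2 genes or fewer. Depleted secretory and depleted proteasome genes each went from 2 to 1 without it. Enriched ribosomal protein genes went from 0 to 1, and enriched glutamate, GABA and glycine receptor genes from 1 to 2. Medians that moved by over 1.5 times are given below or here. Without OL library 3 the median log2 fold change was 0.40 for kinesins and dyneins, 0.30 for heat shock, 0.47 for chromatin and 0.59 for splicing genes. It was 0.48 for proteasome, 0.37 for tRNA synthetase and -0.13 for mitochondrial ribosomal protein genes. The median of all genes tested was -0.15 without OL library 3 and -0.27 with it. Leaving it out raised the number of OL enriched genes defined below from 3733 to 4480 and of highly OL enriched genes from 556 to 825, and 3713 and 552 genes were called in both fits.

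Genes were called OL enriched at a log2 fold change (OL over total RNA) above 0.5 and OL depleted below -0.5, with q under 0.05, and highly so past 2 in either direction. The value q is the p of edgeR's quasi-likelihood test after Benjamini-Hochberg adjustment over 17167 genes. Of these genes, 3733 (21.7%) were OL enriched and 4909 (28.6%) OL depleted, and 8525 were neither. The highly enriched genes numbered 556 (3.24%) and the highly depleted 2990 (17.4%). In 28.8% of all genes tested the 3 OL libraries lay above the 3 total libraries, and in 38.1% they lay below.

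The distribution was lopsided. Among genes with more than 3 counts in at least 1 library of the lower group, 44 called genes exceeded a log2 fold change of 3 and none exceeded 4, the highest being 3.87. On the other side, 1598 called genes lay below -3 and 711 below -4, the lowest being -6.66. A further 481 depleted genes had 3 counts or fewer in every OL library, 297 of them with no count in any, so their fold changes have no defined size. The median over all genes tested was -0.27. With library sizes alone as scaling it was -0.78, and enriched genes then made up 22.2% of all calls in place of 43.2%, so values near 0 are read below against the median of all genes.

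The most enriched genes, taken as the 15 highest fold changes among 3482 called genes with separated libraries and at least 10 CPM in OL, included Gsn, Klk6, Mag, Col2a1, Itgb4, Trf, Serpinb1a, Cdkn1c, Mfsd7a, Sp7, Inf2, Tmprss5, Agpat4 and Cnp. Gsn (ENSMUSG00000026879, chr2:35256380-35307892, GRCm38), which encodes the actin-severing protein gelsolin, had 3108, 3393 and 2495 CPM in OL libraries 1, 2 and 3 and 267, 246 and 209 CPM in the total libraries. All OL values lay far above all total values, a 12.5-fold difference (log2 3.64, SE 0.14, q = 3.76e-14). Trf, the iron carrier transferrin, had 1932, 2041 and 1658 CPM in OL and 200.2, 186 and 157 CPM in total RNA (10.4-fold, q = 3.55e-14). Both genes were separated by about an order of magnitude in every pool.

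Several of the 15 are not structural myelin genes. Itgb4, the integrin beta 4 subunit, reached 704, 776 and 462 CPM in OL and 70.5, 69 and 46.8 CPM in total RNA. Cdkn1c, the cell cycle inhibitor p57, reached 211, 244 and 109.7 CPM in OL and 22.5, 23.2 and 11 CPM in total RNA. Both were lower in pool 3 in either kind of RNA, and the ratios of OL to total RNA stayed close across pools (9.98, 11.2 and 9.88 for Itgb4, 9.38, 10.5 and 9.97 for Cdkn1c). Col2a1, a fibrillar collagen of cartilage, and Sp7, the osterix transcription factor known from bone, were low but as enriched as the myelin genes. Col2a1 had 16.9, 15.5 and 14.3 CPM in OL against 1.97, 1.32 and 1.14 CPM (log2 3.40, q = 1.15e-11), and Sp7 had 35.5, 32.6 and 44.2 CPM against 3.51, 2.39 and 5.86 CPM (log2 3.25, q = 6.17e-09).

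Per length of mRNA, the 10 most abundant genes of the OL libraries included Mbp, Tubb4a, Aplp1, Glul, Scd2, Apod, Cnp, Mag and Cldn11. Mbp, the basic protein that holds the cytoplasmic faces of myelin together, had 7011 ± 923 RPKM (SD, n = 3), TMM-scaled, and Tubb4a, a beta tubulin, 6416 ± 1153 RPKM. Mbp alone took 4.12% to 4.79% of all counts of an OL library and 1.20% to 1.45% of a total library. It was 4.96-fold higher in OL (log2 2.31, q = 3.59e-12). Of these 10 genes, Mag and Cnp were also among the 15 most enriched. Glul, glutamine synthetase, is often used as an astrocyte marker, and here it was 6.05-fold higher in OL than in total RNA, at 11084, 13288 and 10846 CPM against 2025, 2004 and 1794 CPM (log2 2.60, q = 1.11e-12).

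All 20 genes of a mature OL list were OL enriched, 19 of them highly, with a median log2 fold change of 2.81 (range 1.502 to 3.49), against 21.7% enriched and a median of -0.27 over all genes. In each of these genes the 3 OL libraries lay above the 3 total libraries. This and the other lists were chosen with earlier results of these data known, so their counts are descriptive. Klk6 (ENSMUSG00000050063, chr7:43824499-43832030), a secreted protease of mature spinal OLs, led the list with 1624, 1608 and 734 CPM in OL and 155, 128 and 70.3 CPM in total RNA (log2 3.49, SE 0.27, q = 3.50e-10). Its level in pool 3 was lower than in the other pools, in OL and in total RNA alike. Mag (ENSMUSG00000036634, chr7:30899176-30914873), an adhesion protein of the inner myelin wrap, followed with 9665, 10495 and 7738 CPM against 949.9, 898 and 791 CPM (log2 3.40, SE 0.13, q = 3.17e-14). Mobp was the only member not highly enriched, with 9035, 7894 and 7854 CPM against 3074, 2674 and 3004 CPM (log2 1.502, q = 2.80e-08).

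The promoters of Klk6, Mag and Cnp are shown as those of the most enriched mature OL genes with an entry in the promoter set used (RefSeq, GRCm38.p6). Each is the 250 bases before the start annotated in RefSeq, on the strand of the gene and 5′ to 3′, at chr7:43824294-43824543 on the plus strand for Klk6, chr7:30914864-30915113 on the minus strand for Mag and chr11:100574689-100574938 on the plus strand for Cnp. The gene positions printed elsewhere are from GENCODE M21, and each window reaches into its gene's span there. Capitals mark ACAAAG, the core of SOX protein motifs, searched on both strands (CTTTGT on the other).
Klk6: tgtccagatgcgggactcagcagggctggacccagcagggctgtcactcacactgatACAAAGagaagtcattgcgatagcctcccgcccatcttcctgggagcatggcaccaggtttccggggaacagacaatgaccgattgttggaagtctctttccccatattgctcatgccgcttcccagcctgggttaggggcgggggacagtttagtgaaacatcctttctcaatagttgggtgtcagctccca
Mag: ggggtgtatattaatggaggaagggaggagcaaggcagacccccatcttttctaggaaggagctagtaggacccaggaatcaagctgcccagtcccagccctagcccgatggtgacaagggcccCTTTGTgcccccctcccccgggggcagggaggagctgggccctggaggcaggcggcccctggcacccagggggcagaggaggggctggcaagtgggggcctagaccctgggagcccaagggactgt
Cnp: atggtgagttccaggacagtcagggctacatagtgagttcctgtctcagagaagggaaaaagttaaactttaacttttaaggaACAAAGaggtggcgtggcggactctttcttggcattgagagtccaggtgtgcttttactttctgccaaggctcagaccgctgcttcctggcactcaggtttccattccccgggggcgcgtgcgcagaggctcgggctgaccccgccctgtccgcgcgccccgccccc
Each of these windows held the motif once, at 193, 126 and 167 bases before the start. It occurred in 6 of the 16 mature OL promoters in the set, in 12.9% of the 13169 promoters of all tested genes and in 14.9% of 437 promoters of highly OL enriched genes. Among genes called OL enriched the share was 10.9%, and among OL depleted genes 11.4%. A match describes these letters and is not a binding site.

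Along the OL lineage, OPC genes lay on the opposite side from mature OL genes. Of 15 OPC genes none was OL enriched and 14 were depleted (median -2.42), the exception being Rlbp1 (log2 -1.01, q = 0.204, and -2.34 with q = 0.00385 without OL library 3). Pdgfra, the PDGF receptor that defines OPCs, had 4.54, 3.22 and 12.1 CPM in OL and 49.5, 51.2 and 46.3 CPM in total RNA (log2 -2.88, q = 8.44e-07). Cspg4, the NG2 proteoglycan of OPCs and pericytes, had 4.66, 3.64 and 7.61 CPM against 23.2, 23.3 and 24.1 CPM (log2 -2.15, q = 5.96e-06). Both stayed below total RNA in each pool, and the OPC median was -2.95 without OL library 3.

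Genes of committed precursors and newly formed OLs divided. Of 14 tested, 8 were enriched (21.7% of all genes) and 3 depleted (28.6%), with a median of 1.14. Enpp6, a phosphodiesterase of newly forming OLs, had 519.9, 498 and 321 CPM in OL against 68.9, 60.2 and 52.5 CPM (log2 2.88, q = 1.24e-11), and Bcas1 had 2152, 2179 and 1955 CPM against 648, 647 and 765 CPM (log2 1.61, q = 5.82e-11). On the other side Gpr17, a receptor of precursors about to differentiate, had 11, 6.94 and 18 CPM against 91.2, 92.7 and 70.0 CPM (log2 -2.82, q = 4.75e-07). Neu4, a sialidase, went the same way (log2 -2.43, q = 3.27e-06).

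Of 22 transcription factors of the lineage, 16 were enriched, 12 of them highly, and 3 were depleted (median 2.07). Sox10, required for OL differentiation, had 1106, 1239.6 and 886 CPM in OL and 146, 151 and 121 CPM in total RNA (log2 2.95, SE 0.15, q = 6.19e-13). Myrf, which switches on myelin genes, had 1853, 2071 and 1562 CPM against 268, 258 and 257 CPM (log2 2.81, q = 4.65e-13). Factors present from the precursor stage on were enriched too, with log2 fold changes of 2.07 for Olig1, 2.12 for Olig2 and 2.29 for Nkx2-2. The depleted members were Myt1 (-3.37, q = 0.00201), Prrx1 (-1.45, q = 0.0366) and Id4 (-1.35, q = 0.0429). With an offset for length and GC content 1 factor was depleted, and without OL library 3 or without pool 3 there were 5. Id2 and Id4 encode inhibitors of differentiation, and in OL library 3 their levels stood at several times those of the other OL libraries (18.4, 20.3 and 124 CPM for Id2).

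The 22 genes of compact myelin and the myelin sheath were all enriched, 17 of them highly (median 2.35). Below the list's leaders stood Omg (log2 1.38), an inhibitor of axon growth, and the tetraspanin Cd9 (1.56). Pmp22, better known from peripheral myelin, had 678, 686 and 611 CPM in OL and 135, 130.4 and 174 CPM in total RNA (log2 2.17, q = 7.69e-09).

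Genes of lipid synthesis were mostly enriched. Of 22 genes for galactolipids and sphingolipids, 18 were enriched and 1 depleted (median 1.32). Ugt8a, which makes galactosylceramide, had 2039, 1880 and 1183 CPM in OL and 347, 278 and 226 CPM in total RNA (log2 2.58, q = 3.31e-09), and Fa2h, which hydroxylates its fatty acid, had a log2 fold change of 2.96. Ugcg, the enzyme that makes glucosylceramide from the same precursor, was the depleted member, with 22.3, 15.8 and 17.6 CPM against 88.7, 75.4 and 80.4 CPM (log2 -2.14, q = 2.79e-10). The glycolipid enzymes that use galactose and glucose thus lay on opposite sides, with no overlap between the libraries of either.

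Of 23 genes of cholesterol biosynthesis, 20 were enriched and none depleted (median 1.34). The synthase Hmgcs1 had 2001, 1938 and 1540.3 CPM in OL and 411, 408 and 384 CPM in total RNA (log2 2.19, q = 1.96e-09). Fdft1, the squalene synthase, was at log2 1.34 (q = 2.70e-07) and Insig1, a regulator of the pathway, at 0.74 (q = 0.000697). The members that did not pass were Acat2 (0.43), Hsd17b7 (0.41) and Tm7sf2 (-0.22). Without OL library 3 the count was 22 of 23.

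In fatty acid synthesis and elongation, 14 of 22 genes were enriched and none depleted (median 1.28). Elovl1, an elongase for very long chains, had 353, 398 and 302 CPM in OL against 57.3, 49.7 and 49.1 CPM (log2 2.75, q = 1.81e-13), and Scd2, a desaturase, had 19164, 20103 and 18060 CPM against 4099, 3843 and 3680 CPM (log2 2.30, q = 1.54e-13). The desaturases Fads1 and Fads2, which act on polyunsaturated fatty acids, did not follow. Fads2 had 22.5, 28.2 and 207 CPM in OL and 151, 159.7 and 161 CPM in total RNA (log2 -0.87, q = 0.225). Without OL library 3 its value was -2.48 (q = 8.96e-05), and 4 genes of the list were then called depleted, or 5 without pool 3. With the tissue pool as a block, Fads2 also passed (q = 0.0225) and 3 genes of the list were depleted.

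Of 38 cytoskeletal genes of OL processes, 28 were enriched, 20 of them highly, and 4 were depleted (median 2.10). Besides Gsn, the leaders were Ndrg1 (log2 3.18), Stmn4 (3.07), the motor Myo1d (3.06) and Tubb4a (3.05). Tubb4a had 14359, 16829 and 11693 CPM in OL against 1778, 1841 and 1576 CPM (q = 4.10e-13). Mapt, the tau protein often counted as neuronal, had 1437, 1502 and 1270.2 CPM in OL and 534, 532 and 511 CPM in total RNA (log2 1.42, q = 2.20e-11). The depleted members were Tubb3, Tubb2a, Map1b and Map2, and Map2, a dendritic protein, was the lowest at log2 -2.72 (q = 3.96e-10).

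Motors that carry cargo along microtubules lay on both sides. Among 30 kinesin and dynein genes 10 were enriched and 8 depleted, against 21.7% and 28.6% of all genes (median 0.17, or -0.35 with library sizes alone). Kif13b had 656, 789 and 648 CPM in OL and 124, 118 and 119 CPM in total RNA (log2 2.54, q = 2.22e-12), and Kif13a was at 2.07. Kinesins of neurons went the other way. Kif5a had 475, 479 and 387 CPM against 2206, 2189.7 and 2099 CPM (log2 -2.28, q = 3.96e-10), and Kif5c was at -2.73. The intermediate chains of dynein split as well, with Dync1i2 at 1.62 (q = 8.30e-11) and Dync1i1 at -2.61 (q = 5.19e-10).

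The list of paranodal and axon-glia adhesion genes holds both partners of the junction. Of its 31 genes, 16 were enriched (21.7% of all genes) and 10 depleted (28.6%), with a median of 0.56. Cntn2, contactin 2, had 3184, 3342 and 2384 CPM in OL and 454, 414 and 381 CPM in total RNA (log2 2.84, q = 1.08e-12), and Nfasc, whose glial form stands on the OL side of the paranode, was at 1.57 (q = 2.44e-11). Cntnap1, the axonal partner at the paranode, had 17.9, 19.4 and 17.7 CPM against 257, 275 and 275 CPM (log2 -3.87, q = 7.70e-11). Cntnap2, its relative at the juxtaparanode of the axon, was at -4.76 (q = 8.96e-12). Of the ankyrins, which link membrane proteins to spectrin, Ank3 was at 0.56 and Ank1 at -3.57.

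Of 12 connexin and pannexin genes 4 were enriched (21.7% of all genes) and 5 depleted (28.6%), with a median of -1.25. Without OL library 3 the median was -2.27 with 7 depleted. The OL connexin Gjb1 had 986, 1080.3 and 757 CPM in OL and 138, 128 and 108 CPM in total RNA (log2 2.92, q = 3.38e-13), and Gjc3 had a log2 fold change of 1.94. Gjd2, the connexin 36 of neurons, had 1.22, 0.338 and 0.803 CPM in OL and 19.6, 21.7 and 18.4 CPM in total RNA (log2 -4.65, q = 2.38e-06). Gja1, the connexin 43 of astrocytes, did not pass at -0.67 (q = 0.469), and was at -2.26 (q = 0.0105) without OL library 3.

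Among 29 channels and transporters of glia, 9 were enriched and 8 depleted, against 21.7% and 28.6% of all genes. The median was -0.42, and -0.33 with the gene at 0 counts at its bound. The fit without OL library 3 had 16 depleted and a median of -1.88. Slc12a2, a sodium, potassium and chloride cotransporter, had 1828, 1902 and 1315 CPM in OL and 301, 264 and 224 CPM in total RNA (log2 2.68, q = 9.25e-12). Kcnj10, the Kir4.1 potassium channel shared by astrocytes and OLs, had 2628, 2729 and 3579 CPM against 1268, 1252 and 1135 CPM (log2 1.29, q = 1.25e-08). Unlike the water channel Aqp4 of astrocytes, Kcnj10 was above total RNA in all 3 OL libraries, and Aqp4 had 108, 96.5 and 717 CPM against 714, 666 and 587 CPM (log2 -1.09, q = 0.218). Hepacam, the partner of the MLC1 protein, was also enriched (log2 1.81).

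For metabolic supply, 9 of 18 genes were enriched and 2 depleted (median 0.68). The depleted genes were 4 with the pool as a block, 6 without OL library 3 and 7 without pool 3. The enriched members included the regulators of pyruvate use Pdk2 (1.05) and Pdk4 (1.46), and the depleted ones with all libraries were Slc2a3, the neuronal glucose transporter (-3.97), and Ckmt1, a mitochondrial creatine kinase (-3.88). In iron handling 6 of 21 genes were enriched and 4 depleted, against 21.7% and 28.6% of all genes. The median was 0.17, or -0.34 with library sizes alone. Highly depleted members numbered 3, or 5 without OL library 3. Beside Trf, the enriched genes included Tfrc, the transferrin receptor, at a log2 fold change of 0.63 (q = 0.000868). Slc40a1, the iron exporter ferroportin, had 0.504, 0.381 and 0.574 CPM in OL and 5.74, 5.16 and 4.69 CPM in total RNA (-3.40, q = 1.63e-08).

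Growth factor receptors and ligands held members on both sides, with 11 of 33 enriched (21.7% of all genes) and 13 depleted (28.6%), 8 of them highly (median -0.49). These were 17 and 14 genes, with a median of -1.23, without OL library 3. The receptors S1pr5 (3.10), Fgfr2 (2.73), Lpar1 (2.65) and Erbb3 (2.57) were highly enriched. Erbb3, a neuregulin receptor, had 216, 238 and 150.2 CPM in OL and 40.1, 35.2 and 26.1 CPM in total RNA (q = 2.12e-08). Its ligand Nrg1 lay on the other side, at 1.98, 2.75 and 2.03 CPM in OL and 65.6, 61.4 and 64 CPM in total RNA (log2 -4.82, q = 3.29e-09). Another neuregulin gene, Nrg3, was at -4.75. Of the FGF receptors, Fgfr1 was depleted (-0.78, q = 4.22e-06) and Fgfr3 did not pass (-0.49, q = 0.598). Il33, an alarmin, was among the enriched ligands, at 871, 996 and 739.9 CPM against 186, 176 and 144 CPM (log2 2.37).

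Among the inhibitors of axon growth, several ligands and receptors lay on opposite sides. Of 20 genes, 11 were enriched (21.7% of all genes) and 6 depleted (28.6%), with a median of 1.61. The ligands Mag, Omg (1.38) and Rtn4, which encodes Nogo (1.91), and the guidance molecules Efnb3 (2.81) and Sema4d (2.72) were enriched. Their receptor chain Rtn4r was depleted, at 3.19, 4.15 and 1.42 CPM in OL and 7.28, 8.99 and 8.18 CPM in total RNA (log2 -1.48, q = 0.00133). So were Rtn4rl1 (-4.44), Lingo1 (-3.70) and Tnfrsf21 (-1.48). Ngfr, a further member of the receptor complex, went against them and was enriched at a low level, 11.8, 12.9 and 9.33 CPM against 2.98, 3.06 and 3.52 CPM (log2 1.83, q = 0.00522).

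**Figure D2:**
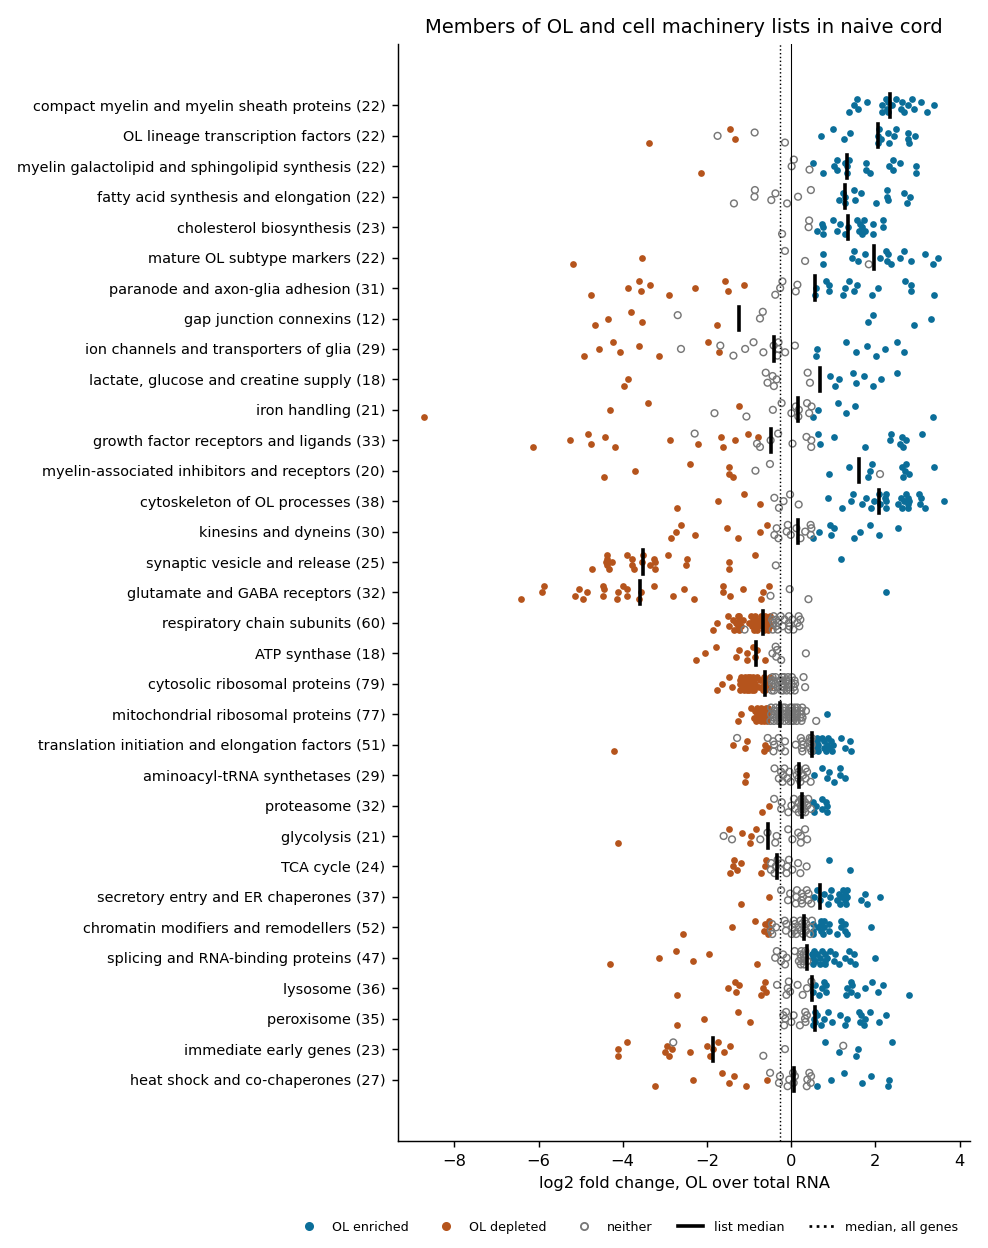
Log2 fold change of OL over total RNA for each tested member of 33 lists of OL and cell machinery genes (number tested in parentheses), with filled points for called genes, open points for the others, a bar at the list median and a dotted line at the median of all genes. All 22 compact myelin genes lie to the right and the synaptic lists lie to the left except for single genes such as Sv2a and Grm3.

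The most depleted genes included receptors and peptides known from neurons. The 15 lowest fold changes, among 3166 called genes with separated libraries and at least 10 CPM in total RNA, were those of Cck, Glra3, Cdh12, Nts, Olfm3, Gabrb2, Glra2, Dcn, Glra1, Chodl, Slc35d3, Cartpt, Npy1r, Kcnj6 and Gucy1a2. Cck (ENSMUSG00000032532, chr9:121489824-121495694), a neuropeptide, had 0.336, 0.381 and 0.268 CPM in OL and 29.9, 36.8 and 33.6 CPM in total RNA, 101-fold lower in OL (log2 -6.66, SE 0.50, q = 2.23e-10). Glra1, the adult glycine receptor subunit of spinal neurons, had 3.36, 2.33 and 1.95 CPM in OL and 122, 155 and 168 CPM in total RNA (58.3-fold lower, q = 7.25e-08). Dcn, the proteoglycan decorin of fibroblasts, had 0.126, 0 and 0.689 CPM against 14, 11.9 and 25.6 CPM. Its highest OL value was in library 3, and the fold moved from 59.8 to 229 without it. In Glra3 and Dcn 1 OL library had no count. Apart from Glra1 and Chodl, the genes named here stayed below 1 CPM in every OL library, where 3 counts are 0.115 to 0.127 CPM. The size of these folds, that of Cck included, rests on few counts.

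All 20 genes of a neuron list were depleted, 17 of them highly, with a median of -3.99, against 28.6% depleted and 17.4% highly depleted over all genes. The list summed to 1836, 1745 and 1541 CPM in OL and to 15963, 16959 and 16426 CPM in total RNA. Snap25, a fusion protein of nerve terminals, had 158, 115 and 117 CPM in OL and 3425, 3532 and 3369.9 CPM in total RNA (log2 -4.73, q = 4.30e-12). Rbfox3, the nuclear antigen NeuN, had 12, 12.6 and 9.29 CPM against 181, 199 and 207 CPM (log2 -4.11, q = 5.73e-13). Least depleted were Tubb3 (-0.73) and Uchl1 (-0.84).

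Lists for subclasses of neurons were depleted too. The excitatory list had a median of -5.08 (11 of 12 depleted), the inhibitory list -4.52 (11 of 12) and the motor neuron list -4.92 (12 of 12). Slc17a6, the vesicular glutamate transporter of spinal excitatory neurons, had 7.02, 7.28 and 6.73 CPM in OL and 223, 231 and 247 CPM in total RNA (log2 -5.06, q = 1.01e-12). Chat, which makes acetylcholine in motor neurons, had 1.76, 0.804 and 0.421 CPM against 32.8, 31.3 and 29.9 CPM (log2 -4.98, q = 6.81e-06). The excitatory exception was Reln (-1.15, q = 0.0607). It was highest in OL library 3 within the OL group, and without that library it was called depleted (-2.31, q = 5.44e-05), as were all 12 genes of the inhibitory list. Reln also passed with the pool as a block (q = 0.0157).

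Synaptic genes followed the neurons, with 23 of 25 vesicle and release genes depleted (median -3.53). Sv2a, a synaptic vesicle glycoprotein, went against the list with 1249, 1362 and 915 CPM in OL and 510.2, 523 and 524 CPM in total RNA (log2 1.18, q = 1.54e-07), whereas its relative Sv2b was at -3.78 (q = 5.95e-07). Of 32 glutamate, GABA and glycine receptor genes 28 were depleted (median -3.60). The enriched gene was Grm3, a metabotropic glutamate receptor, with 222, 229 and 176 CPM in OL and 48.6, 41 and 41.5 CPM in total RNA (log2 2.26, q = 1.24e-08). Its libraries did not overlap, and the other metabotropic receptor Grm5 was at -4.48.

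All 20 microglia and macrophage genes were depleted (median -3.89), and the list summed to 120, 96.8 and 90.5 CPM in OL and to 798, 666 and 625 CPM in total RNA. Cx3cr1, the fractalkine receptor of microglia, had 3.36, 2.28 and 2.72 CPM in OL and 59.1, 53.1 and 51.2 CPM in total RNA (log2 -4.29, q = 9.00e-13). P2ry12, a purine receptor of microglia, was less depleted than most of the list, at 8.66, 8.08 and 7.42 CPM against 35.5, 27.7 and 26 CPM (log2 -1.88, q = 5.80e-08). Defining myeloid genes such as Aif1 and Tyrobp stayed below 1 CPM in every OL library (0.252, 0.508 and 0.306 CPM and 0.672, 0.212 and 0.497 CPM).

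Of 15 endothelial genes 14 were depleted (median -4.13), with Cldn5, a tight junction protein, at 1.13, 0.592 and 0.535 CPM in OL and 18, 21.2 and 17.5 CPM in total RNA (log2 -4.65, q = 4.36e-07). The exception was the receptor gene Kdr (-0.77, q = 0.0944). Pericyte and smooth muscle genes had a median of -4.02 (9 of 12 depleted) and ependymal genes -1.96 (6 of 15). The medians were -3.27 (10 depleted) and -3.15 (8 depleted) without OL library 3. Fibroblast genes had a median of -3.02 (-2.96 with the gene at 0 counts at its bound, and -4.003 without OL library 3), with 8 of 12 depleted and Col1a2 enriched (55.8, 46.1 and 71.5 CPM in OL, 42, 33.2 and 34.9 CPM in total RNA, log2 0.66, q = 0.0156). Without pool 3 no fibroblast gene was enriched. Col1a1, which encodes the other chain of the same collagen, was depleted, at 1.98, 1.35 and 5.66 CPM in OL and 6.56, 8.03 and 11 CPM in total RNA (q = 0.00163). Of 14 blood and lymphocyte genes 5 were depleted (median -2.68), against 28.6% of all genes. In this list 5 genes had no count in any OL library (median -0.59 with these at the bound that 3 counts allow). Leaving out OL library 3 left 2 depleted (median -2.06).

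**Figure D3:**
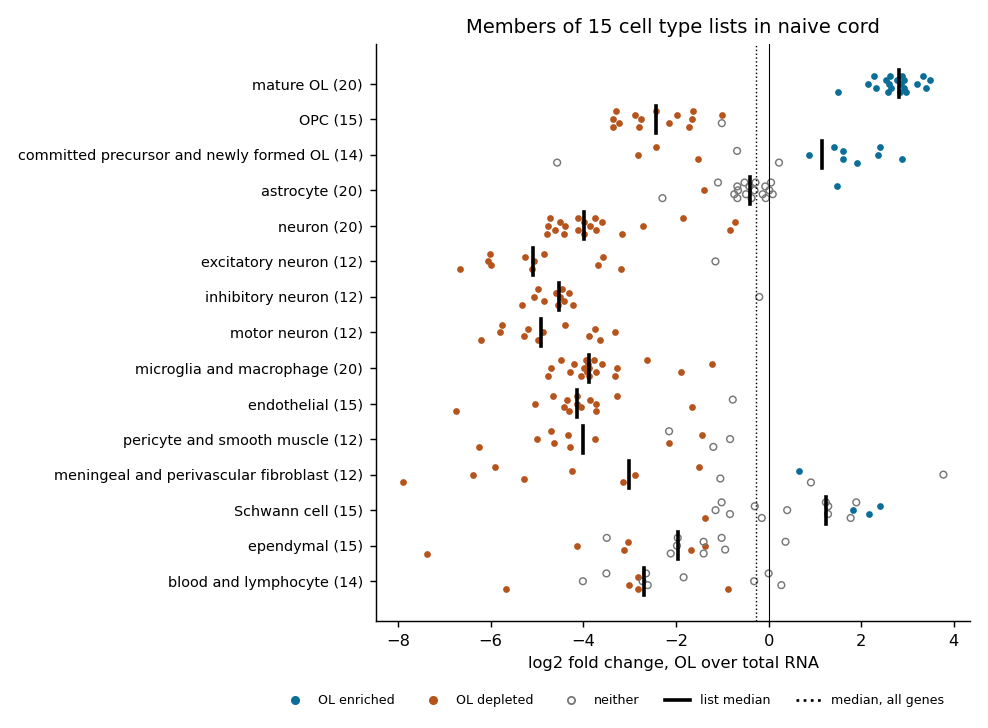
Log2 fold change of OL over total RNA for each tested member of 15 cell type lists (number tested in parentheses), with symbols as for the OL and cell machinery lists. The 20 mature OL genes lie to the right between 1.502 and 3.49, the neuron, microglia and endothelial medians lie at -3.99, -3.89 and -4.13, and 18 of 20 astrocyte genes are open points around the list median of -0.39.

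The direction of the astrocyte list depended on which libraries were used. Of 20 genes 1 was enriched and 1 depleted, and the median was -0.39. Without OL library 3 the median was -1.91 and 14 genes were depleted, and without the whole of pool 3 it was -2.12, also with 14 depleted, whereas without OL library 2 it was 0.20. Aldh1l1, a folate enzyme that marks astrocytes, had 27.8, 26.1 and 163 CPM in OL libraries 1, 2 and 3 and 68.7, 74.8 and 65.4 CPM in total RNA (log2 0.05, q = 0.971, or -1.21, q = 0.0283, without OL library 3). Slc1a2, the main glutamate transporter of astrocytes, had 472, 506 and 3961 CPM against 2710.4, 2562 and 2533 CPM (log2 -0.66, q = 0.459, or -2.25, q = 0.00675). In both, the OL libraries 1 and 2 lay below all total libraries and OL library 3 above them.

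The astrocyte gene that stood out was S100b, which OLs also express. It was enriched in every pool, with 2628, 2428 and 2233 CPM in OL and 977, 836 and 798 CPM in total RNA (log2 1.48, q = 7.65e-11). Apoe, listed with OL subtype genes and known from astrocytes, followed the astrocyte pattern with 902, 1119.6 and 4841 CPM in OL and 1829, 1804 and 1827 CPM in total RNA (log2 0.33, q = 0.544). Of the 340 genes high in OL library 3, 77 were called depleted with all libraries and 320 without it, and none was called enriched in either fit.

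Schwann cell genes depended on the pool. Prx, periaxin of Schwann cells, had 0.084, 0.169 and 82.4 CPM in OL and 0.459, 0.322 and 23.5 CPM in total RNA, so it was near 0 in pools 1 and 2 and present in both libraries of pool 3. Prx was also 1 of 5 genes that total library 3 held at 4 times or more the other total libraries, as were Plekha4, Hoxc11 and Hoxd11. In pool 3 OL exceeded total RNA by 3.51-fold for Prx, which did not pass the test (q = 0.271). The list had a median of 1.24 with 3 of 15 enriched (21.7% of all genes). Without OL library 3 the median was -1.61 with 3 enriched and 8 depleted (-1.22 with 4 depleted without pool 3). With the pool as a block 3 members were depleted in place of 1. The enriched members Pou3f1 (2.40), Pmp22 and Ngfr did not share that profile.

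**Figure D4:**
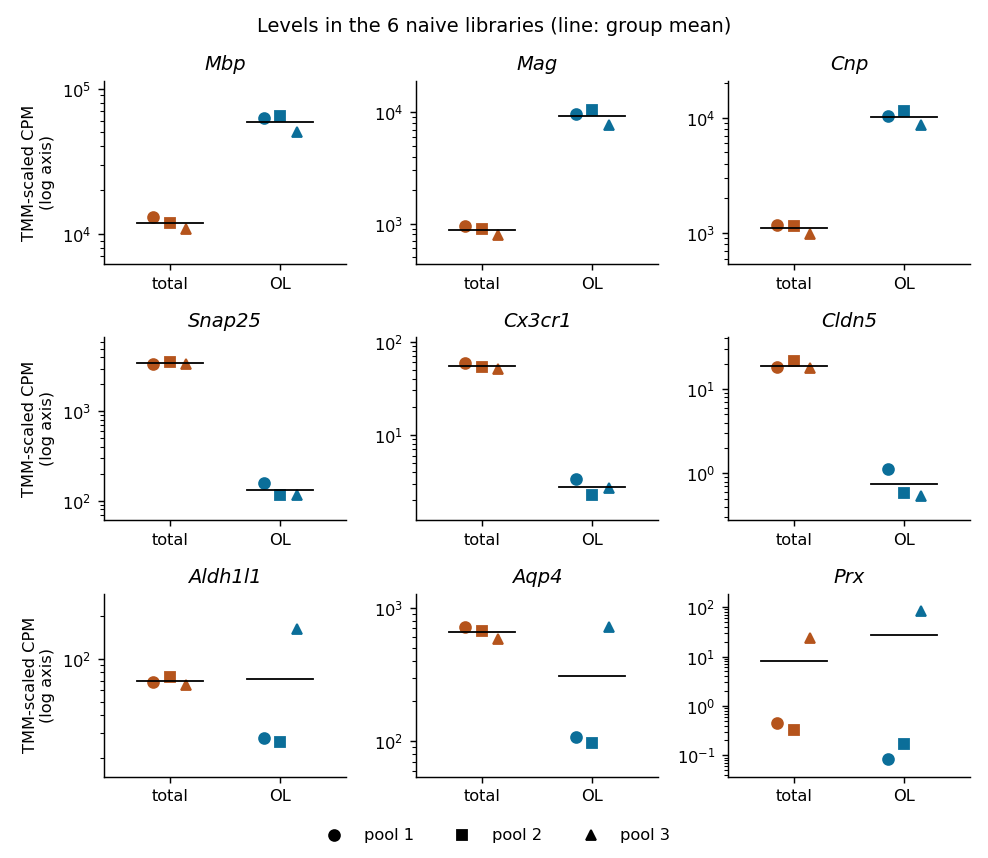
TMM-scaled CPM (log axis) of 9 genes in the 3 total (brown) and 3 OL (blue) libraries of naive cord, with a symbol for each pool and a line at the group mean. Mbp, Mag and Cnp are higher in all OL libraries and Snap25, Cx3cr1 and Cldn5 lower, whereas Aldh1l1 and Aqp4 are high in OL only for pool 3 and Prx is high in both libraries of pool 3.

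The machinery shared by all cells differed less, and its values are read against the median of all genes (-0.27). Of 79 cytosolic ribosomal protein genes none was enriched and 44 were depleted (median -0.63, which is -0.36 from the median of all genes). Rps15a had 36.3, 33.9 and 31.3 CPM in OL and 104, 113 and 126 CPM in total RNA (log2 -1.76, q = 9.64e-12). Translation factors went the other way, with 23 of 51 enriched and 7 depleted (median 0.49, or -0.03 with library sizes alone, in both cases above the median of all genes). Among these, Eef1a1, the ubiquitous elongation factor, had 2570.1, 2532 and 2425 CPM in OL and 1312, 1244 and 1325 CPM in total RNA (log2 0.96, q = 7.21e-09). Its paralog of neurons and muscle, Eef1a2, had 70.5, 50.5 and 53.1 CPM against 1013, 1117 and 1097 CPM (log2 -4.21, q = 1.22e-12).

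Many mitochondrial energy genes were depleted. Of 60 nuclear respiratory chain genes none was enriched and 38 were depleted (median -0.67), and of 18 ATP synthase genes none was enriched and 12 were depleted (median -0.84). Cox7b, a subunit of cytochrome c oxidase, had 42, 40.2 and 64.2 CPM in OL and 181, 172 and 175 CPM in total RNA (log2 -1.85, q = 1.47e-08). All its OL values lay below all its total values, as they did in 46 of the 60 respiratory chain genes (38.1% over all genes). Mitochondrial ribosomal protein genes had the median of all genes (-0.27, 25 of 77 depleted against 28.6% of all genes, and 14 without OL library 3). In the TCA cycle 2 of 24 genes were enriched (21.7% of all genes), among them the cytosolic Idh1 (1.41, q = 2.41e-11). Depleted genes numbered 8 (28.6% of all genes), with Mdh1 the lowest (-1.46, q = 2.70e-08). Of 21 glycolysis gene entries (Aldoa has a pair) none was enriched and 6 were depleted, led by the neuronal enolase Eno2 (-4.12). The share of depleted glycolysis genes was that of all genes (28.6%). Their median was -0.56, and without OL library 3 it was -0.89 with 10 depleted, or 12 depleted without pool 3.

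Exon length moved with the fold change across all genes. In the fifth of genes with the shortest exon length (39 to 2214 bases) the median was -0.52, with 11.9% enriched and 23.2% depleted, and in the fifth of genes with the longest (7199 to 123179 bases) it was -0.17, with 27.8% enriched and 34.3% depleted. With an offset for length and GC content the median of the ribosomal protein genes was -0.51 (41 depleted) and that of the respiratory chain -0.50 (29 depleted).

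Genes of the secretory entry and ER chaperones were enriched in 21 of 37 cases and depleted in 2 (median 0.69). Pdia4, a disulfide isomerase, had 319, 305 and 191 CPM in OL and 72.6, 62.5 and 54.8 CPM in total RNA (log2 2.10, q = 7.74e-10). Sec61a1, the pore of the ER translocon, was at 1.79 (q = 2.71e-12). In the lysosome list 18 of 36 were enriched (21.7% of all genes) and 9 depleted (28.6%). The median was 0.49, or -0.02 with library sizes alone, and without OL library 3, 5 were depleted. Npc1, which exports cholesterol from lysosomes, had 1350, 1438 and 1000.2 CPM in OL and 208, 187 and 154 CPM in total RNA (log2 2.79, q = 9.97e-13). Of 35 peroxisome genes 20 were enriched and 4 depleted (median 0.57), among the enriched ones Ech1, an enoyl-CoA hydratase family enzyme (1.73, q = 9.64e-12). Abcd2, a fatty acid transporter, was depleted (-2.06, q = 0.00241).

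RNA-binding proteins held both extremes, with 23 of 47 splicing genes enriched and 6 depleted (median 0.39, or -0.13 with library sizes alone). Qk, the quaking protein that binds myelin mRNAs, had 3094, 2918 and 2228 CPM in OL and 799, 677 and 601 CPM in total RNA (log2 1.99, q = 8.81e-10). Rbfox1, a splicing factor of neurons, had 14.4, 10.8 and 8.64 CPM against 205, 218 and 241 CPM (log2 -4.29, q = 1.02e-08). Of 52 chromatin genes 19 were enriched and 8 depleted (median 0.30, or -0.21 with library sizes alone). Without OL library 3 or without pool 3, 3 were depleted. Kdm4a, a histone demethylase, had the highest value (1.90, q = 1.18e-09), and of the related helicases Chd4 was enriched (1.31) and Chd3 depleted (-2.58). Proteasome and tRNA synthetase genes had 8 of 32 and 8 of 29 enriched and 2 depleted in each list, against 21.7% and 28.6% of all genes. Their medians of 0.27 and 0.18 turned to -0.25 and -0.33 with library sizes alone. The enriched genes were 14 and 13 without OL library 3.

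Immediate early genes, which neurons and other cells switch on within minutes of a stimulus, were mostly depleted. Of 23 genes, 14 were depleted (28.6% of all genes) and 5 enriched (21.7%), with a median of -1.86. Egr1 had 1.81, 1.69 and 3.06 CPM in OL and 37, 35.5 and 41.3 CPM in total RNA (log2 -4.11, q = 6.75e-10), and Fos had 5.38, 3.09 and 2.45 CPM against 14.3, 15.1 and 12.1 CPM (log2 -1.93, q = 7.25e-07). Arc, known for its role at synapses, went against the list, at 200.2, 238 and 147 CPM in OL and 41.1, 38.2 and 31.4 CPM in total RNA (log2 2.40, q = 3.00e-08). All 3 OL libraries lay above all total libraries for Arc, and Jun (1.59), Jund (1.14) and Zfp36 (1.53) had the same direction. Of 27 heat shock genes 7 were enriched and 7 depleted, against 21.7% and 28.6% of all genes (median 0.06, or -0.46 with library sizes alone). The counts were 12 and 6 without OL library 3. Cryab, a small heat shock protein of OLs, was enriched (2.30) and Hspb1, a related one, depleted (-2.33, q = 0.0055).

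The genes highly enriched in naive cord were looked up in the 3 injured groups, whose own OL and total libraries are other samples. Of the 556 genes, OL enriched genes numbered 510, 524 and 526 (dpi 2, 10 and 42), and 279, 348 and 293 were highly enriched. Over all genes, 348, 431 and 354 were highly enriched on these days, and in naive cord 21.7% of all genes were OL enriched. Members of the 556 made up 80.2%, 80.7% and 82.8% of the genes highly enriched at each time point. Over all genes, differential OL enrichment (the difference of the log2 fold change from naive cord, with the tissue pool in the fit, past 1) was called upward in 506 (2.95%), 238 (1.39%) and 247 (1.44%) and downward in 432 (2.52%), 226 (1.32%) and 210 (1.22%) genes on dpi 2, 10 and 42. The 556 genes were chosen for high naive values, so their falls of 66, 36 and 33 genes and no rises say nothing on direction.

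Efemp1, an extracellular matrix protein, had the largest fall with q under 0.05 among the 556 genes on dpi 10 and on dpi 42. In naive cord it had 32.6, 36 and 18.8 CPM in OL and 5.18, 4.55 and 3.74 CPM in total RNA (log2 2.70, q = 2.41e-07). Its differential OL enrichment was -3.39 (q = 0.000108) on dpi 10 and -3.32 (q = 0.000164) on dpi 42. The OL libraries held 11.2 to 17.3 CPM of it on dpi 10 (log2 -0.73 over total RNA). On dpi 42 they held 8.74 to 19.9 CPM (log2 -0.66). Such a difference can come from OL RNA, from total RNA or from both. Il11, a cytokine at 3.4, 4.19 and 1.72 CPM in naive OL, changed by -4.51 (q = 0.0139) on dpi 2. There it had 0.932 to 1.59 CPM in OL (log2 -2.17 over total RNA). The other genes with the largest falls (Tbx10, Gm45837, Chst4 and Pgc) and all with the largest rises (Sall4, Dbil5, Tdo2, Mkrn3, Rdh12, Lmo7 and Gpr143) had q of 0.305 or more.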

How the data were processed

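The authors aligned reads with STAR to the mouse genome, and their notes list FastQC 0.10.1 and HTSeq 0.10.0. The deposited table holds raw read counts per gene for 24 libraries, and no authors' scaling was used. Of 21965 genes, 17167 whose counts over the 24 libraries summed to 10 or more were tested with edgeR 4.0.16 (R 4.3.3): TMM scaling, 8 group means, quasi-likelihood test, two-sided, Benjamini-Hochberg adjustment. CPM and RPKM are TMM-scaled, with exon lengths from GENCODE M21 (GRCm38). Groups came from the labels, and for 2 dpi 42 libraries with conflicting labels from the description. Genes were named as the 15 highest and lowest fold changes among called, separated genes with at least 10 CPM, the 10 highest levels per length, list members and Rpl22. Members and lists were chosen with earlier results of these data known. The pools pair OL and total libraries by design (r of deviations 0.084, 0.0408 and 0.137 within pools). Differential OL enrichment was fitted with the pool as a block. The floor of 3 counts covers counting error only. DESeq2 1.42.0, other scalings and filters, a length and GC offset (mgcv 1.9.3) and leaving out libraries were alternatives, and scripts were tested on simulated data. Promoters came from RefSeq (GRCm38.p6). Some genes are not reported here.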

Additional observations from a re-analysis of the deposited data

Results flagged for a closer look

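Among the 30 genes named for the highest and lowest fold changes in naive cord, 4 differed in OL enrichment between naive and injured cord by a test of the difference itself (past 1 on the log2 scale, edgeR's quasi-likelihood test with the tissue pool as a block, Benjamini-Hochberg adjusted over all genes). Cck was less depleted after injury, with a difference of 2.553 on dpi 2 (SE 0.515, q = 0.00575) and of 3.801 on dpi 42 (SE 0.498, q = 0.00102), and on dpi 10 the difference of 1.638 did not pass (q = 0.0843). Cck had at most 78 counts in a dpi 2 OL library and 124 in a dpi 42 OL library. Col2a1 was less enriched on dpi 10, with a difference of -1.287 (SE 0.220, q = 0.00414). Gsn was less enriched on dpi 42, with a difference of -1.378 (SE 0.131, q = 0.000119), and the differences on dpi 2 and 10 were -0.52 (q = 0.0185) and -0.55 (q = 0.0238). Olfm3 also passed on dpi 42 (-5.416, SE 0.914, q = 0.00595), but it had no count in any dpi 42 OL library, so its difference has no defined size. For 2 dpi 42 libraries the label fields conflict, which touches the dpi 42 values. The genes were chosen for extreme naive values, so a difference toward 0 is favoured by the choice.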

How the results depend on the processing

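No gene named for its fold change or its level changed its call under the alternatives run. With library sizes alone as scaling, 2005 genes were OL enriched and 220 highly so, and the list medians were 2.281 for mature OLs, -4.504 for neurons, -4.4 for microglia and macrophages and -4.621 for endothelial cells. The fits with the replicate block (tissue pool) called 3659 genes enriched, 4661 depleted, 537 highly enriched and 2785 highly depleted, within 1.5 times of the counts without it. The block also moved list medians, among them those of the astrocyte (-1.158), Schwann cell (0.5303) and ependymal lists (-2.369). With it the median was -1.167 for channels and transporters of glia and -0.81 for growth factor receptors and ligands. It was -1.73 for connexins and pannexins and 1.08 for inhibitors of axon growth and their receptors. List counts that the block moved by over 1.5 times are given above. The block moved the other lists' counts of enriched and depleted genes by less. Leaving out single libraries or pools gave 3391 to 4480 enriched, 3870 to 4888 depleted, 513 to 825 highly enriched and 2400 to 3234 highly depleted genes. It gave medians of 2.658 to 3.132 for mature OLs, -3.094 to -1.905 for OPCs, -2.123 to 0.1991 for astrocytes, -4.097 to -3.725 for neurons, -4.025 to -3.571 for microglia and -4.175 to -3.847 for endothelial cells. The Schwann cell median ranged from -1.61 to 1.926, and it reversed to -1.61 without naive OL library 3 and to -1.217 without pool 3, and the cause was not tested. Leaving out a replicate number from all groups gave 142 (without replicate 2) to 271 genes above naive on dpi 10, 121 (without 2) to 431 (without 3) above on dpi 42, with 150 without replicate 1, and 134 (without 2) to 219 below on dpi 42. On dpi 2 the ranges were 357 to 614 above and 322 to 416 below, and on dpi 10 159 to 203 below. Among list medians, 717 values over all alternatives moved by less than the spread between replicates, 193 moved by more and 2 reversed. Some medians that changed sign were not counted among these 2. The astrocyte median went from -0.393 to 0.1991 without naive OL library 2. With library sizes alone the proteasome median went from 0.2671 to -0.2472. With 3 pools a group, differences in genes at a few counts in both kinds of RNA may have been missed at this depth, which was not tested.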
